A study of Rattus norvegicus with 6 samples.

Results

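The SR splicing factor family was examined in whole blood of rats after middle cerebral artery occlusion (MCAO) or sham surgery. Its members were the probe sets that the array annotation gives to Srsf1, Srsf2, Srsf3, Srsf4, Srsf5, Srsf6 or Srsf7, which were 7 of the 14217 genes and 11 of the 31042 probe sets tested. A further 2 probe sets are given both to Srsf3 and to another locus and were left out of the counts. The family was chosen by a measured value, since the wider of the 2 Srsf2 probe sets, the one whose values ranged further over the rats, was called downregulated in this same comparison at a false discovery rate (FDR) under 0.05. Its difference between the groups, and those of its paralogues beside it, are therefore given as a description, without a test.

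Male Sprague-Dawley rats aged 8 weeks were used, 3 in each group, and each rat's blood RNA was hybridized onto 1 GeneChip rat genome array. In the MCAO group a silicone rubber-coated nylon thread was passed through the left internal carotid artery to close the origin of the middle cerebral artery, and was then withdrawn. The sham group was given an uncoated thread, so the ligated carotid arteries, the thread and the isoflurane anesthesia were common to both groups, and blood was drawn from the heart 24 h after reperfusion. The 3 MCAO rats had been kept from a larger number of operated rats for the size of their infarct, whereas no such choice was described for the sham rats. Whole blood is a mixture of cells, so fewer cells of a type and less RNA per cell cannot be told apart.

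SR proteins bind exons through RNA recognition motifs and recruit the splicing machinery through a tail rich in serine and arginine. Kinases of the SRPK and CLK families phosphorylate this tail and thereby steer the SR proteins between cytoplasm, nuclear speckles and sites of transcription. Many SR genes limit their own output by including exons that send the transcript to nonsense-mediated decay, and Srsf2 is well known for recurrent mutations in myeloid blood cancers.

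The study placed Srsf2 among the predicted targets of the microRNA rno-miR-3552, whose sequence is shown because the study listed Srsf2 through this pair. Capitals mark the seed, bases 2 to 8, and 0 others of the 693 mature rat microRNAs in the RefSeq table (GRCr8) share it. The gene lies on the + strand at chrX:115488778-115488798.
rno-miR-3552: aGGCUGCAggcccacuucccu
The microRNA arrays were not analysed here.

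Srsf2, which binds exonic enhancers and activates their splicing, lay slightly lower in the MCAO group at its wider probe set, and this rested mainly on MCAO rat 1. MCAO rats 1 to 3 had log2 values of 6.7940, 6.7997 and 6.8012, and sham rats 1 to 3 had 6.7986, 6.8029 and 6.8025. The groups overlapped, because sham rat 1 lay below MCAO rats 2 and 3. The values come from the authors' DFW (Distribution Free Weighted) summary, on which the range over the 6 rats was only 6.55 millionths of a log2 unit for the median probe set. Differences are given here as log2 differences on the DFW scale, in thousandths of a log2 unit unless millionths are stated, and are not fold changes of raw intensity. On this scale MCAO rats 1 to 3 lay at -7.36, -1.60 and -0.115 relative to the sham mean, and sham rats 1 to 3 at -2.73, 1.55 and 1.19. The difference, MCAO minus sham, was -3.02 (SE 2.45, n = 3 each), and the SD was 3.83 among MCAO rats and 2.37 among sham rats. Without MCAO rat 1 the difference was -0.856, so that rat enlarged it 3.53 times.

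The narrower Srsf2 probe set had a range over the 6 rats that was narrower by a factor of 599. MCAO rats 1 to 3 lay at -7.38, -9.37 and 5.50 millionths of a log2 unit relative to the sham mean, and sham rats 1 to 3 at -5.90, 3.63 and 2.28. Here MCAO rat 2 was the lowest and MCAO rat 3 the highest of all rats. Its difference was -3.75 millionths (SE 5.21, n = 3 each).

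**Figure D1:**
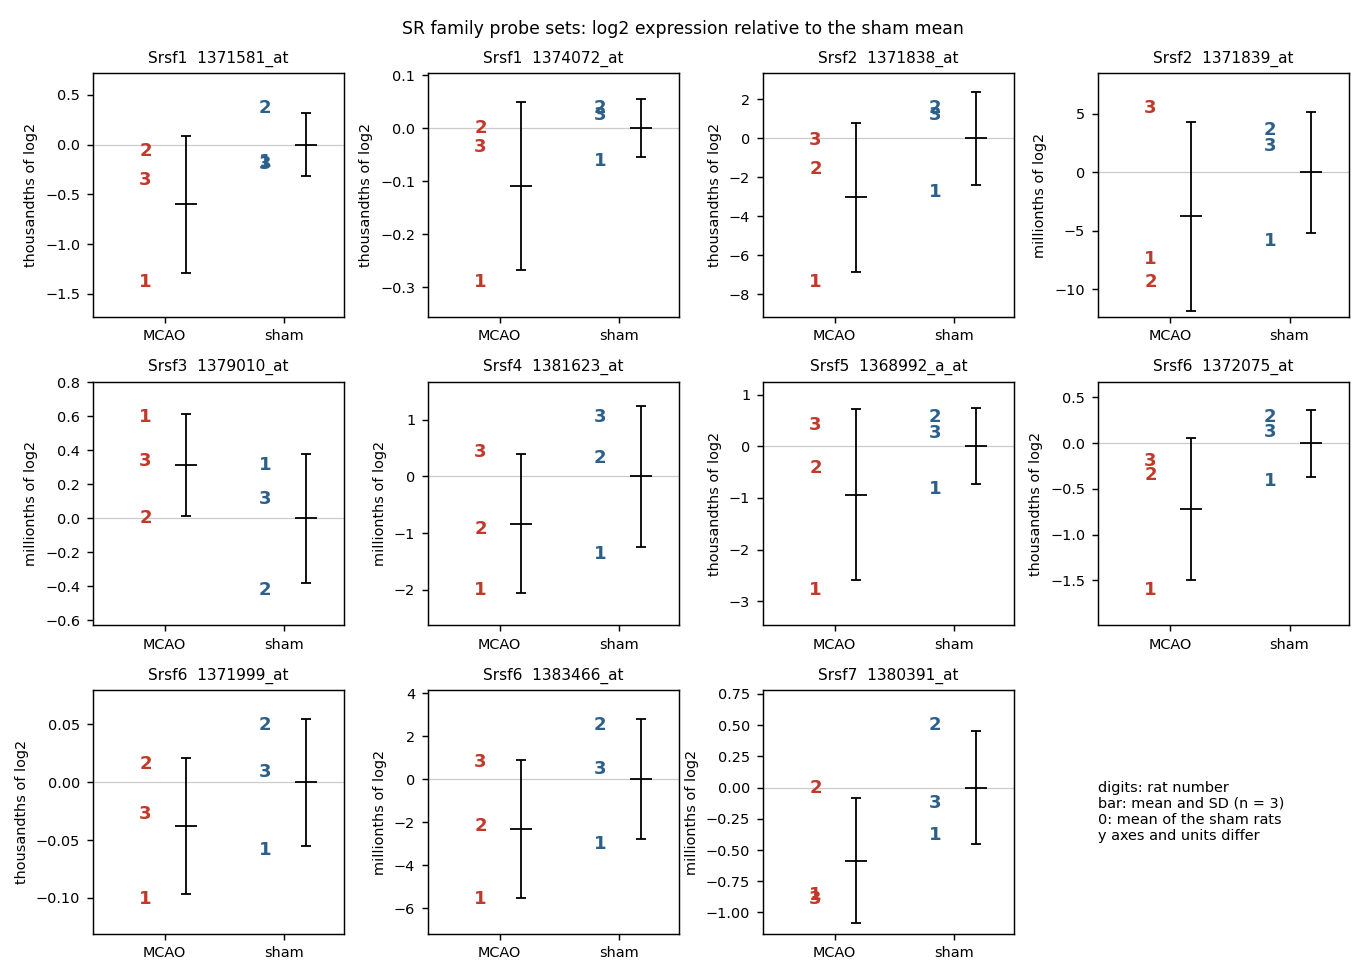
Level of the 11 SR family probe sets (y axis, log2 units on the DFW scale) relative to the mean of the sham rats, with rat numbers as symbols and with the SD around each mean (n = 3). Scales and units differ between panels, and in 8 of the 11 panels MCAO rat 1 is the lowest of the 6 rats.

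Of the 11 SR family probe sets, 1 was called lower by Rank Products (the wider one of Srsf2) and none higher. Over all probe sets 0.606% were called lower and 0.129% higher. The lower call is the one that singled out Srsf2, so nothing is read from this count. In simulated data with independent noise and its own spread for each probe set, most Rank Products calls fell on unchanged probe sets. Rank Products ranks log2 differences, so in such data wide probe sets come first whether changed or not. A call here is therefore not taken as a change by itself. The FDR of the called Srsf2 probe set was 0.0497, just inside the threshold, and the nearest family member outside it was the wider Srsf1 probe set at 0.201. In 5 other draws of 100 permutations, made after this value was seen, the FDR of the Srsf2 probe set was between 0.0460 and 0.0515, and it was called in 5 of the 6 draws in all. By limma none of the 11 was called, as none of the 31042 was (0%), and 1150 of all probe sets (3.70%) had an unadjusted p under 0.05. In none of the 11 did the groups separate without overlap, whereas in 3.60% of all probe sets the MCAO rats all lay below the sham rats and in 4.82% above. Among the 1081 probe sets with a range of at least 0.001 log2 units over the 6 rats, 17.4% were called lower, 3.15% were called higher, 8.97% were separated below and 1.02% above.

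Srsf5, Srsf6 and Srsf1, which activate splicing through exonic enhancers as Srsf2 does, were the paralogues that also reached this range, each at its widest or single probe set. For Srsf5 (1 probe set), MCAO rats 1 to 3 lay at -2.79, -0.422 and 0.407 relative to the sham mean, and sham rats 1 to 3 at -0.836, 0.576 and 0.260. Its difference was -0.936 (SE 0.988, n = 3 each), and -0.00773 without MCAO rat 1. For Srsf6 (widest of 3 probe sets), the values were -1.61, -0.348 and -0.190 in the MCAO rats and -0.411, 0.292 and 0.120 in the sham rats, with a difference of -0.716 (SE 0.467, n = 3 each). These probe sets shared the pattern of Srsf2, with MCAO rat 1 far below the rest and sham rat 1 the lowest of its group. For Srsf1 (wider of 2 probe sets), the founding SR protein once called SF2/ASF, the values were -1.38, -0.0621 and -0.359 in the MCAO rats and -0.170, 0.368 and -0.198 in the sham rats, with a difference of -0.600 (SE 0.414, n = 3 each). Here too MCAO rat 1 was the lowest and the groups overlapped.

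The narrower probe sets of the same genes had the same sign at smaller size. The narrower probe set of Srsf1 had a difference of -0.109 (SE 0.0908, n = 3 each). The other probe sets of Srsf6 had -0.0377 (SE 0.0436) and -0.00231 (SE 0.00232, n = 3 each). The widest of the Srsf6 probe sets had a range 235 times that of the narrowest.

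Srsf3, Srsf4 and Srsf7 were measured at 1 probe set each, and all ranged over a few millionths of a log2 unit at most. Srsf3, a small SR protein that also serves mRNA export, was the member with the higher mean in the MCAO group. MCAO rats 1 to 3 lay at 0.599, 0.00267 and 0.339 millionths relative to the sham mean, and sham rats 1 to 3 at 0.313, -0.424 and 0.112, with a difference of 0.313 millionths (SE 0.365, n = 3 each). MCAO rat 1 was the highest rat there and sham rat 2 the lowest, the reverse of Srsf2. For Srsf4, MCAO rats 1 to 3 lay at -2.01, -0.934 and 0.431 millionths and sham rats 1 to 3 at -1.37, 0.319 and 1.05, with a difference of -0.838 millionths (SE 0.981, n = 3 each). For Srsf7, an export adaptor as Srsf3 is, the MCAO rats lay at -0.859, -0.00633 and -0.892 millionths and the sham rats at -0.379, 0.501 and -0.121, with a difference of -0.586 millionths (SE 0.446, n = 3 each). The groups overlapped for each of the 3 genes, and MCAO rat 1 was the lowest for Srsf4 and MCAO rat 3 for Srsf7. The SE is that of limma, which moderates the spread over all probe sets. Of the 2 probe sets given both to Srsf3 and to another locus, the wider had a difference of -0.222 thousandths. The narrower had -0.285 millionths, with the groups separated below. MCAO rat 1 was the lowest rat in both, unlike at the Srsf3 probe set above. Their Pearson's r with the wider Srsf2 probe set was 0.865 and 0.576.

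Whether Srsf2 differed from its paralogues depended on the unit. In log2 units the difference of the wider Srsf2 probe set was 3.23 times that of Srsf5, the largest among the 9 paralogue probe sets, and its range was 2.64 times as wide. Srsf2 minus the median of the paralogue probe sets was -7.26, -1.60 and -0.114 for MCAO rats 1 to 3, and -2.68, 1.51 and 1.19 for their sham counterparts. The Srsf2 difference minus the median of the paralogue differences was -2.99, nearly that of Srsf2 alone. As a share of each probe set's own range in the deposited values, Srsf2 lay among its paralogues. The difference was -34.0% of the range for Srsf2, -37.7% for the widest Srsf6 probe set, -34.3% for the wider Srsf1 probe set and -27.8% for Srsf5. In units of the SD within groups the difference was -0.949 for Srsf2, and the paralogues ran from -1.23 (Srsf7) to 0.915 (Srsf3) with a median of -0.771, 3 of the 9 being more negative than Srsf2. The gap between Srsf2 and the median of its paralogues was then -0.178 SD, and its size depended on the processing. It was 0.139 without MCAO rat 2 and -0.0279 with 1 probe set per paralogue, but -0.469 after quantile normalization, -0.755 with each array centred on its median and -0.716 with same-numbered rats as pairs.

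**Figure D2:**
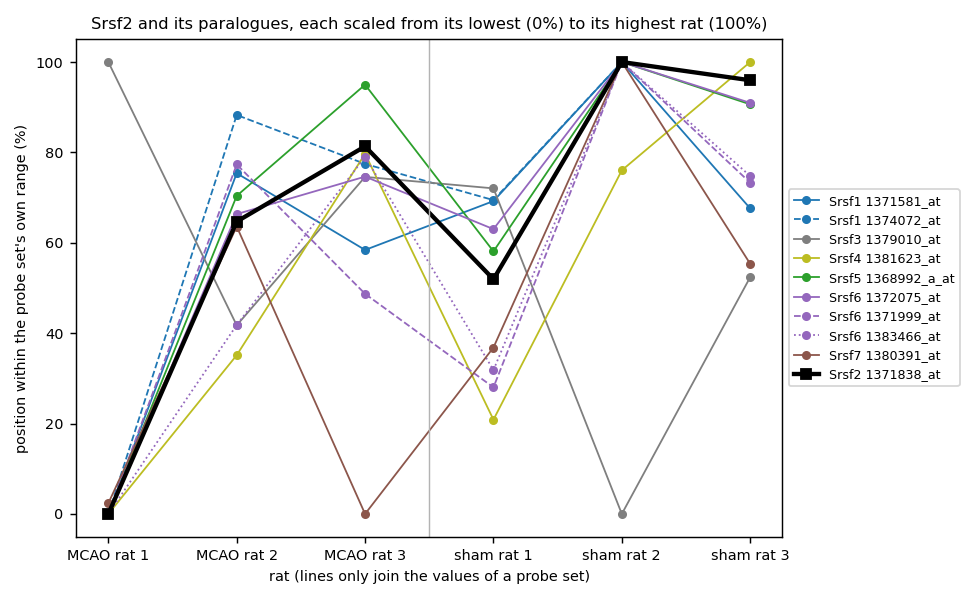
Position of each rat (x axis) within a probe set's own range (y axis, %, from the lowest rat at 0 to the highest at 100) for the wider Srsf2 probe set in black and the 9 paralogue probe sets in color, labeled by gene and array identifier. MCAO rat 1 is at 0 for Srsf2 and for 7 of the 9 paralogue probe sets. The Srsf3 probe set shown, with a range of only 1.02 millionths, runs the other way.

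Range and call went together over the whole array. This follows largely from the method, because Rank Products ranks log2 differences and none can exceed the range. The range of the wider Srsf2 probe set was at percentile 99.4 of all probe sets, with 187 probe sets wider. Of the 231 other probe sets whose range was within 2 times that of this Srsf2 probe set, 32.5% were called lower, whereas of the 29961 probe sets with a range under 0.001, where 7 of the 11 family members lay, 0.02% were called in either direction. The Srsf5, Srsf6 and Srsf1 probe sets above this width were at percentiles 98.6, 97.8 and 97.7 of range.

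**Figure D3:**
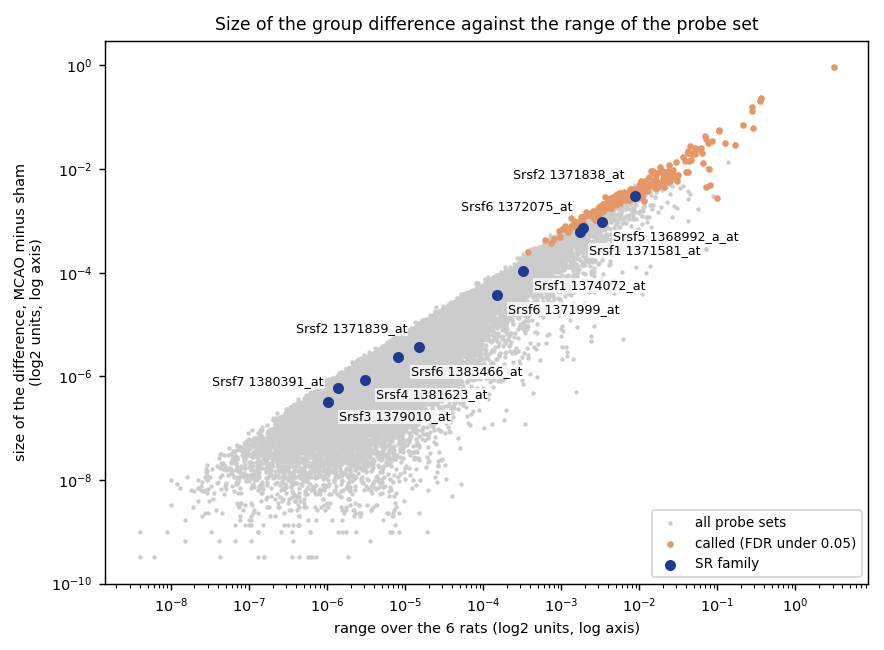
Size of the difference between MCAO and sham rats (y axis, log2 units, log scale) against the range over the 6 rats (x axis, log2 units, log scale) for all probe sets whose difference is not 0 and is large enough for the axis, with called probe sets in orange and the family in blue. The SR family lies along the band of all probe sets, and the Srsf2 probe set with a range of 8.91 thousandths is its widest member.

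The same rats were often at the extremes. MCAO rat 1 was the lowest rat in 8 of the 11 probe sets, against 19.5% of all probe sets and 57.9% of the 1081 with a range of at least 0.001. Sham rat 2 was the highest in 8 of the 11, against 14.8% and 22.8%. The MCAO mean was lower in 10 of the 11, against 46.6% of all probe sets and 80.0% of the wider ones, and it was lower in the same number without MCAO rat 1, against 51.0% of all. The 11 include the Srsf2 probe set whose call chose the family, and several are of the same gene. Of the 9 paralogue probe sets, 7 were lowest in MCAO rat 1, 7 were highest in sham rat 2 and 8 had the lower MCAO mean. Only 4 of the 11 have a range of at least 0.001, and in all 4 each of these held. The median value of the array was 5.56434 for MCAO rat 1, and the other rats ran from 5.56438 to 5.56441. The part of the array of MCAO rat 1 in these differences was not tested. Over the 6 rats, Pearson's r with the wider Srsf2 probe set was 0.986 for the widest Srsf6 probe set, which put all rats in the same order. It was 0.984 for Srsf5, 0.871 for the wider Srsf1 probe set and -0.762 for the narrow Srsf3 probe set given to that gene alone.

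Such likeness to Srsf2 was common among probe sets of this width. Among 863 others with 1 gene symbol and a range of at least 0.001, 29.9% had r over 0.9 and the median was 0.707. The 5 most alike were Sumo2, a ubiquitin-like modifier, with r = 0.996, the ribosomal proteins Rpl34 and Rpl3 with 0.996 in each case, the cytokine receptor kinase Jak1 with 0.994, and Ube2d2, a ubiquitin-conjugating enzyme, also with 0.994. Srsf6 ranked 35 and Srsf5 ranked 42. All probe sets share the same 6 blood samples and arrays and 1 normalization, so these correlations are a description only. Of the 5, Rpl3 was called lower with a difference of -4.30 (SE 3.19, n = 3 each), at a range of 12.5, and the others were not called.

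The promoters of Srsf2 and Srsf6 are shown since these members put the 6 rats in the same order. Each spans the 300 bases around the transcription start in the RefSeq annotation (GRCr8), in which all 7 genes were matched. Capitals mark 4 motifs searched on both strands, which may overlap, namely the GC box GGGCGG, the CCAAT box CCAAT, the TATA box TATAAA and the core TGACG of the cyclic AMP response element.
Srsf2 promoter, chr10:102554092-102554391, - strand: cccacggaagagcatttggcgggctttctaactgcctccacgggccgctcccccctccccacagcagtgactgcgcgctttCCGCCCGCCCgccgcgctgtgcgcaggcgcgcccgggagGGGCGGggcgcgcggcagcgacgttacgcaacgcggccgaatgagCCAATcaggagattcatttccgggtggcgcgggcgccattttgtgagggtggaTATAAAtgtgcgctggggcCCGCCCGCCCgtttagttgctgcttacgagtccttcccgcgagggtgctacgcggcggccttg
Srsf6 promoter, chr3:172008822-172009121, + strand: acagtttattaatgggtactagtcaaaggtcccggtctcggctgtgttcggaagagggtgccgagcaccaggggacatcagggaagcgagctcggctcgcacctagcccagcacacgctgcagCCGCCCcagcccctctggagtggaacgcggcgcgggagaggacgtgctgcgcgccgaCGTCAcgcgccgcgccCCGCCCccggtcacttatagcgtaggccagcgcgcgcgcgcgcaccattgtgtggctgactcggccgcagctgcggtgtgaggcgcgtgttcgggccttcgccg
The GC box was found in 5 of the 7 promoters (33.1% of all 33469 promoters), 5 times in that of Srsf2 and 2 times in that of Srsf6. The CCAAT box was found in 3 (37.5% of all), the TATA box in 2 (14.2%), and TGACG in 4 (21.2%). The GC content was between 59.3% and 78.3%, against a median of 51.7% over all promoters. A match is a description of the letters, not a binding site.

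Other genes of the splicing machinery were given by 7 lists, in which 142 of 159 genes were measured, each by its probe set with the highest mean. By Rank Products 1 was called lower, none was called higher and 141 were not called. The 1 call is 0.704%, against 0.935% of 14217 genes called lower and 0.134% called higher. The called gene was Snrpe, an Sm protein in the core of the spliceosomal snRNPs. MCAO rats 1 to 3 lay at -13.8, -2.28 and -1.15 relative to the sham mean, and sham rats 1 to 3 at -3.82, 1.24 and 2.57, with a difference of -5.74 (SE 4.22, n = 3 each, FDR 0.0243). It overlapped between the groups at sham rat 1, as Srsf2 did, and its difference was -1.72 without MCAO rat 1.

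Within these lists the MCAO mean was lower for 112 of the 142 genes (78.9%), against 50.2% of all genes, and MCAO rat 1 was the lowest rat for 85 (59.9%), against 23.2%. Without MCAO rat 1 the mean was lower for 85 (59.9%), against 52.2% of all genes. Only 18 of the 142 genes had a range of at least 0.001. Of these, 18 had the lower MCAO mean and 17 were lowest in MCAO rat 1, against 80% and 57.9% of all probe sets of this range. Without MCAO rat 1 the mean was lower for 13 of the 18, against 57.6% of such probe sets. The groups separated without overlap for 7 of the 142, all lower in MCAO, and above for none, against 4.11% and 4.43% of all genes.

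Among the 5 other measured SR proteins, Tra2b, a sequence-specific splicing activator, had a difference of -0.477 (SE 0.251) and Srsf11 of -0.454 (SE 0.408, n = 3 each). Of the 11 genes listed under kinases and nuclear import, Clk1, which phosphorylates the SR tail, had -1.06 (SE 1.11) and the importin Tnpo1 -0.171 (SE 0.158, n = 3 each). The other importin of this list, Tnpo3, had only -1.21 millionths (SE 2.64, n = 3 each). None of the genes of these lists was called. Of 27 SR-related and exon junction complex genes, Bclaf1 had -2.53 (SE 2.80) and Srrm2, a scaffold of nuclear speckles, -0.583 (SE 0.984, n = 3 each). Their differences turned to 0.0784 and 0.268 without MCAO rat 1.

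The hnRNP proteins often act against SR proteins at the same exons. MCAO rats had the lower mean for 21 of 23 of them, none of which was called, and Hnrnph1 had a difference of -1.84 (SE 1.69) and Hnrnpa3 of -1.04 (SE 0.887, n = 3 each). Among 28 genes of U1, U2 and 3′ splice site recognition, Sf3b1, a U2 component mutated in myeloid cancers as Srsf2 is, had -1.62 (SE 1.73, n = 3 each), and Snrpe was the called gene. Of 38 genes of the tri-snRNP and catalytic spliceosome, Bud31 had -0.250 (SE 0.429) and Bcas2 -0.231 (SE 0.101, n = 3 each). Of 10 genes of nonsense-mediated decay, the pathway through which SR genes limit themselves, Gspt1, a translation termination factor, had -0.468 (SE 0.179, n = 3 each), with no overlap between the groups and an FDR of 0.0723. Upf3b had -0.0125 (SE 0.0719). The MCAO mean was lower for only 5 of these 10 genes, and their median difference was -0.00881 in units of the SD within groups. None was called in these last 2 lists.

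**Figure D4:**
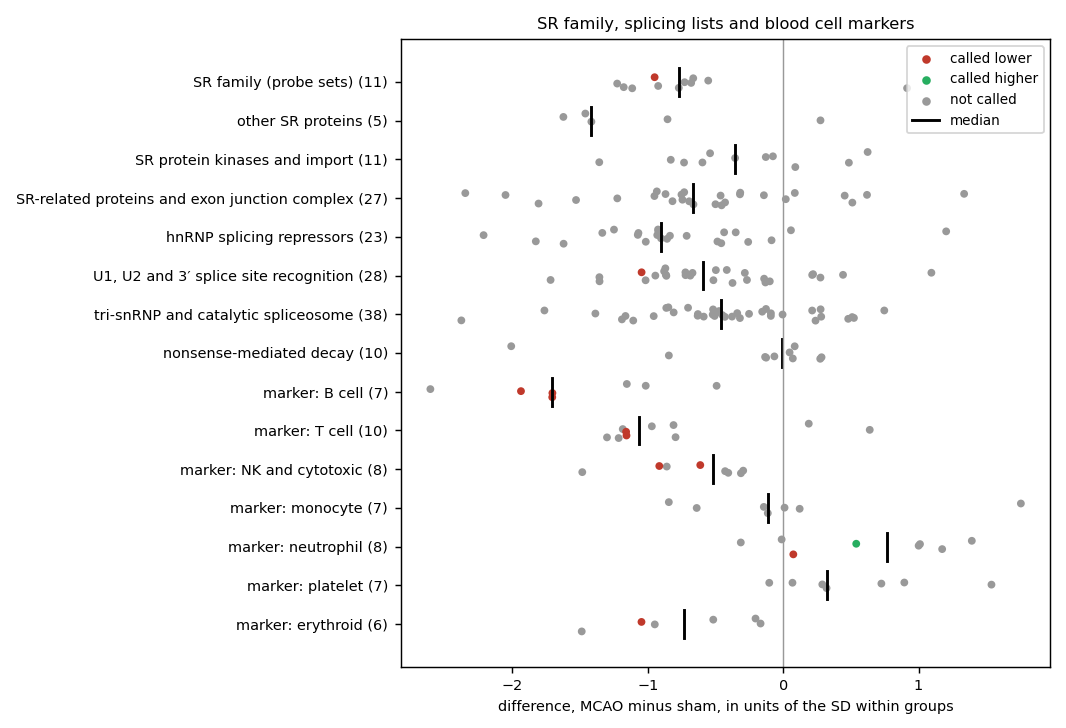
Difference between MCAO and sham rats in units of the SD within groups (x axis) for the 11 SR family probe sets and for the genes of each splicing and marker list (rows, number measured in parentheses), with the median as a black bar. The SR family has a median of -0.771, and the B cell markers lie further left at -1.70.

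Markers of blood cells were measured in the same rats. The blood label was borne out by Hbb, the beta chain of hemoglobin, at 14.21 in both groups and by the platelet chemokine Pf4 at 11.52. All 7 measured B cell markers had the lower mean in MCAO rats, as did 8 of 8 NK and cytotoxic, 6 of 6 erythroid and 8 of 10 T cell markers. For monocyte markers it was 4 of 7, for neutrophil markers 2 of 8 and for platelet markers 1 of 7. The MCAO mean was lower for 50.2% of all genes and for 80% of the probe sets with a range of at least 0.001. Of the B cell markers, Ms4a1, Fcmr and Cr2 were called lower. Ms4a1, which encodes CD20, had a difference of -5.09 (SE 2.29) and Fcmr, a receptor for IgM, of -4.85 (SE 2.18, n = 3 each). Of 10 T cell markers Cd3g and Tcf7 were called lower, of 8 NK and cytotoxic markers Prf1 and Ccl5, and of 6 erythroid markers Tfrc. Of 8 neutrophil markers Csf3r was called higher and S100a9 lower, S100a9 with a mean difference of 2.71 (SE 27.8) that was of the opposite sign. None of 7 monocyte and 7 platelet markers was called. Over all genes 0.935% were called lower and 0.134% higher. Among probe sets with a range of at least 0.001 these shares were 17.4% and 3.15%. The mean log2 value over the T cell markers lay between 6.505 and 6.508 in the MCAO rats and between 6.507 and 6.509 in the sham rats. Over the B cell markers it lay between 6.3198 and 6.3216 in the MCAO rats and between 6.3217 and 6.3232 in the sham rats, without overlap. For 4 of the 7 B cell markers all MCAO rats lay below all sham rats, against 4.11% of all genes. Over the NK and cytotoxic markers it ran from 6.181 to 6.188 against 6.185 to 6.188 in sham rats, over the neutrophil markers from 6.396 to 6.425 against 6.405 to 6.409, and over the monocyte markers from 6.803 to 6.814 against 6.806 to 6.812. Over the erythroid markers it ran from 10.620 to 10.621 against 10.621 to 10.623, and over the platelet markers it was 9.005 to 9.006 against 9.005 in the sham rats. No marker was at 0, since the lowest value in the table was 4.93. The part of these cell types in the differences of the SR family was not tested.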

How the data were processed

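Whole-blood RNA of 3 MCAO and 3 sham rats was measured on GeneChip rat genome arrays. As deposited, the log2 values had been normalized by the authors over the 6 arrays together with the DFW method in R, giving 1 value per probe set and array. No log base is stated, and log2 was taken from the values, which lie between 4.93 and 14.43. Signal over background cannot be given. Apart from that, precision is limited by having 3 arrays per group.

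The 57 control probe sets were left out. Probe sets were named through the array annotation, updated through the gene ID (RefSeq, GRCr8). Of the tested probe sets 20826 had 1 symbol, 436 several and 9780 none. Rank Products, the test of the study, was rewritten (Python 3.11.15, numpy 2.4.6) over the 9 possible MCAO-sham differences, using 100 permutations and calling probe sets at an FDR under 0.05. limma 3.58.1 in R 4.3.3 gave differences and SEs. Both were tested on simulated data. Rank Products recovered every change there when all probe sets had an equal spread. When each had its own spread, it recovered 6.0% of 200 changes of 6 SD and 8.5% of those of 12 SD. It then made 204 and 185 calls on unchanged probe sets, which were most of its calls. The changes were set in each probe set's own SD, at probe sets drawn at random, while Rank Products ranks log2 differences. Low recovery was thus built into this setting. The simulated noise was independent and normal, without patterns shared between probe sets, and fewer permutations were used than for the real data. In the real data Rank Products made 188 lower and 40 higher calls. With its own spread for each probe set, limma recovered none of the smaller and most of the larger changes. The alternatives are limma, rank sums, an FDR of 0.01, controls kept, the brighter probe sets alone, median centring, quantile normalization, same-numbered rats as pairs, other probe sets, each rat left out and other permutation draws. All SR family probe sets were named, with the called genes and the 2 largest differences of each splicing list, the 5 probe sets most like the wider Srsf2 probe set, and the called and brightest markers. Tnpo3 was named in addition, beside Tnpo1. The members and lists were chosen with earlier results of these data known.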

Additional observations from a re-analysis of the deposited data

How the results depend on the processing

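The number of SR family probe sets called lower was 1, and it was 0 by limma with or without an intensity trend, with rank sums, at an FDR under 0.01, with quantile normalization, over the 15521 brighter probe sets alone and in 1 other permutation draw. It was 1 with control probe sets kept and with arrays centred on the median, and from 0 to 1 with each rat left out. It was 0 without MCAO rat 1 and without any of the sham rats. No family probe set was called higher under these alternatives or in the 5 other draws. The 1 called gene of the splicing lists became 0 by limma with or without a trend and at an FDR under 0.01, and from 0 to 6 with a rat left out, with 6 without MCAO rat 3 and 0 without MCAO rat 1, sham rat 2 or sham rat 3.

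The same-numbered rats share only a number. The correlation of their deviations from the group means over all probe sets was 0.211, 0.0400 and 0.0661 for the 3 numbers, and not every rat correlated best with its own. With the replicate block Rank Products called 2 family probe sets and 7 genes of the splicing lists lower, and limma called 0 of each. The shares of all probe sets and genes called with this block, or with a rat left out, are not given here. Nothing is therefore read from the counts of calls under these settings.

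The difference of the wider Srsf2 probe set in thousandths of a log2 unit was -3.02, and -1.92 after quantile normalization, -2.99 with arrays centred on the median, and from -4.48 to -0.856 with a rat left out. Srsf2 minus the median of its paralogues was -2.99, and -1.91 after quantile normalization, -2.99 with arrays centred on the median, -2.72 with 1 probe set per paralogue, and from -4.44 to -0.850 with a rat left out. With the narrower Srsf2 probe set in its place it was reversed, at 0.0340 thousandths and at 0.217 SD. In units of the SD within groups it was -0.178, and from -0.263 to 0.139 with a rat left out, the reversal being without MCAO rat 2. It was -0.469 after quantile normalization, -0.755 with arrays centred on the median, -0.716 with the replicate block and -0.0279 with 1 probe set per paralogue. Centring shifts all probe sets of an array alike. The array medians, from 5.56434 to 5.56441, differ by more than the whole range of the Srsf3, Srsf4 and Srsf7 probe sets, at most 3.06 millionths. None of the gaps in SD units is read as a larger difference of Srsf2, and their cause was not tested.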
